A study of Arabidopsis thaliana with 9 samples.

Results

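The miR172 family of Arabidopsis was followed through its 5 annotated rows, ath-MIR172a to ath-MIR172e, in a small RNA table of shoots under changing iron supply. The rows were taken by name, and all 5 were found among 326 annotated miRNA rows and 33171 rows in all. The shoots were from wild type Col-0 plants, and every plant first spent 14 days on medium with iron. +Fe plants then had 3 days and a further 24 hours with iron, -Fe plants had both periods without iron, and Fe resupply plants had 3 days without iron followed by 24 hours with it. Each condition had 3 biological replicates, so 9 libraries were compared. The table holds no mRNA levels, so the shoot identity of the samples could not be checked against marker genes, and the *AP2*-type target mRNAs of miR172 were not measured in it.

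miR172 is a plant microRNA that lowers the output of a small group of *APETALA2*-type transcription factors by cleavage and translational repression of their mRNAs. These factors delay flowering and hold the shoot in its juvenile phase. miR156 declines as a shoot ages, its SPL targets accumulate, and SPL proteins promote *MIR172* transcription, so miR172 rises toward the adult phase and flowering. In shoots it is therefore known as a marker of age and of competence to flower.

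The mature RNAs are shown first because they decide which rows can be told apart. They were read from the RefSeq annotation of TAIR10.1, 5′ to 3′, with the seed (bases 2 to 8) in capitals.
miR172a and miR172b-3p: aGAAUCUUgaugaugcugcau
miR172c and miR172d-3p: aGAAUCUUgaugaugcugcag
miR172e-3p: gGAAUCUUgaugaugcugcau
miR172b-5p and miR172e-5p: gCAGCACCauuaagauucac
miR172d-5p: gCAACAUCuucaagauucaga
The 3p products of all 5 genes share the seed. Counted from the 5′ end of miR172a, miR172c and miR172d-3p differ from it by U21G and miR172e-3p by A1G, while miR172b-3p is identical. Reads of the shared sequences cannot be assigned to 1 gene by sequence, so ath-MIR172a and ath-MIR172b, and likewise ath-MIR172c and ath-MIR172d, are not independent measurements.

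The genes lie on 3 chromosomes of TAIR10.1. *MIR172a* (AT2G28056) has a precursor of 102 nt at chr2:11942914-11943015, with mature miR172a at chr2:11942918-11942938 on the bottom strand. *MIR172b* (AT5G04275), also called *EARLY ACTIVATION TAGGED* after the early flowering that its activation causes, has a precursor of 95 nt at chr5:1188207-1188301 and miR172b-3p at chr5:1188211-1188231 on the bottom strand. *MIR172c* (AT3G11435, chr3:3599776-3599908) and *MIR172d* (AT3G55512, chr3:20587904-20588027) are on the bottom and the top strand of chromosome 3. *MIR172e* (AT5G59505) is at chr5:23988472-23988596 on the top strand.

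Each precursor was also overlapped by 1 sRNA cluster, for which the table lists the most abundant RNA. The clusters held nearly the same values as the miRNA rows, with a largest difference of 0.038 on the log2 scale in any library, and they were not counted as further evidence. In 4 of them the listed RNA was the mature 3p product. At *MIR172e* (Cluster_21732) the listed RNA was instead on the 5p arm, and it is printed here because it changes what the row measures.
Listed RNA at MIR172e: gcagcaccauuaagauucaca
This RNA is the annotated miR172e-5p with 1 more base at its 3′ end, and it occurs exactly in the *MIR172b* precursor too, at 2 places in the genome in all. The level of ath-MIR172e was therefore led by a 5p RNA that *MIR172b* can also give, not by miR172e-3p.

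All 5 rows were present in every library, and their order was the same in all 9. ath-MIR172b was the most abundant, with 9.46, 9.82 and 9.83 in +Fe, 9.90, 9.90 and 9.84 in -Fe, and 10.24, 10.14 and 9.50 in Fe resupply, as log2 normalized values. It ranked 31 among the 326 miRNA rows by its mean. Next came ath-MIR172d, with 7.23, 7.31 and 7.25 in +Fe, 7.24, 7.28 and 7.08 in -Fe, and 7.51, 7.69 and 7.16 in Fe resupply. It was above ath-MIR172a in each library, by 0.25 to 0.72 on the log2 scale, although the Fe resupply values of these neighbours overlap.

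ath-MIR172a, the gene that SVP is known to repress, had 6.51, 6.77 and 6.71 in +Fe, 6.86, 6.86 and 6.83 in -Fe, and 7.26, 7.09 and 6.63 in Fe resupply. ath-MIR172e followed with 5.94, 6.03 and 6.25 in +Fe, 5.84, 6.12 and 5.93 in -Fe, and 5.98, 5.96 and 5.66 in Fe resupply. The lowest row was ath-MIR172c, with 4.04, 4.22 and 4.11 in +Fe, 4.17, 3.98 and 4.03 in -Fe, and 4.20, 4.26 and 3.78 in Fe resupply, at rank 171 of the miRNA rows. Apart from ath-MIR172d and ath-MIR172a in Fe resupply, no neighbours in this order overlapped within a condition. The 3p products are of equal length, and the levels are values per row, not divided by the length of the precursor.

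**Figure D1:**
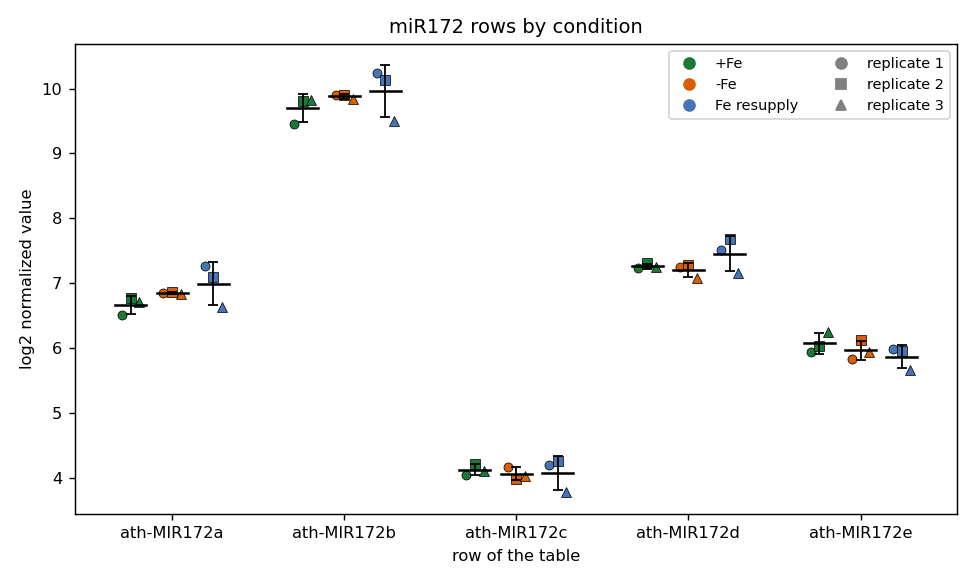
Log2 normalized value (vertical axis) of the 5 miR172 rows in the 9 libraries, by condition (colour) and replicate (symbol), with the mean and SD of 3 libraries as bars. ath-MIR172b lies between 9.46 and 10.24 and ath-MIR172c between 3.78 and 4.26, and Fe resupply replicate 3 is the lowest Fe resupply library in each row.

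On the back-transformed scale, ath-MIR172b took between 68.7% and 74.3% of the family total in each library. ath-MIR172a and ath-MIR172b together, which share a mature RNA, took 77.7% to 83.7%. ath-MIR172c and ath-MIR172d together took 12.2% to 16.3%, and ath-MIR172e took 3.90% to 6.06%. The log2 difference between ath-MIR172b and ath-MIR172a stayed within 2.87 to 3.11 over the 9 libraries. That between ath-MIR172d and ath-MIR172c was 3.09 to 3.19 in +Fe, 3.05 to 3.30 in -Fe and 3.31 to 3.43 in Fe resupply, so each Fe resupply library lay above the other 6, the nearest by very little. How the counting divided reads of a shared sequence between the genes is not given in the sources used here, so these ratios may partly be set by it.

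Fe resupply replicate 3 stood apart within its condition. It was the lowest of the 3 Fe resupply libraries in all 5 rows, with a median difference of -0.46 (log2) from the mean of the other 2 libraries. The largest gap was at ath-MIR172b, which fell by 0.69, and the smallest at ath-MIR172e, which fell by 0.31. Of 134 other miRNA rows with a mean log2 value of at least 5, 58 (43.3%) were also lowest in this library, and their median difference was -0.05. Over all 10051 features at that limit, 29.6% were lowest in this library, with a median difference of 0.0003. +Fe replicate 1 was likewise the lowest of its condition in all 5 rows, with a median difference of -0.20. Among the other miRNA rows 52.2% were lowest in that library, with a median difference of -0.07. For all features at the same limit the share was 30.5% and the median difference 0.014. The library medians over all features lay between 3.83 and 3.87, and read totals are not part of the table, so sequencing depth is unknown. The part of library composition in these shifts was not tested.

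**Figure D2:**
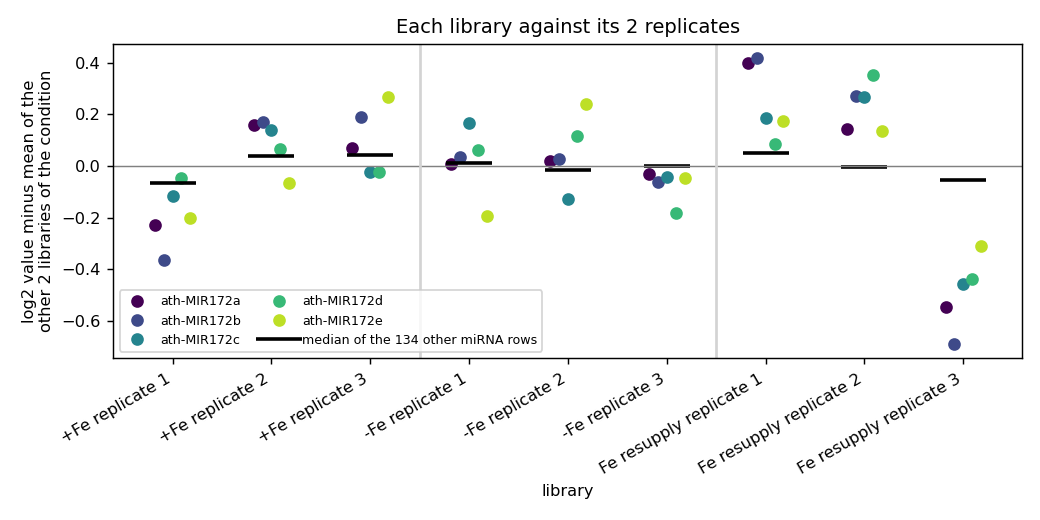
Log2 value of each miR172 row in a library minus the mean of the other 2 libraries of its condition (vertical axis), for the 9 libraries (horizontal axis), with the median of 134 other miRNA rows as black bars. In Fe resupply replicate 3 the 5 rows lie between -0.69 and -0.31, whereas the black bar is at -0.05.

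The first comparison asked whether iron deficiency moved miR172 in the shoot. None of the 5 rows passed in -Fe against +Fe, where a row was called when its Benjamini-Hochberg FDR over all features was below 0.1 and its log2 fold change reached 0.5 in either direction, as in the methods of the study. Across all 33159 features tested, 0.504% were called. At an unadjusted p under 0.05 the count was 0 of 5 rows, against 8.02% of all features. ath-MIR172a was 0.18 higher in -Fe (log2, standard error 0.13, 95% interval -0.08 to 0.44, adjusted p = 0.797 from limma), and ath-MIR172b was also 0.18 higher (standard error 0.14, 95% interval -0.12 to 0.48, adjusted p = 0.832 from limma). In both rows every -Fe library exceeded every +Fe library, a pattern that 7.15% of all features showed, and these rows share their mature RNA. ath-MIR172b cleared the nearest +Fe library by very little (9.84 against 9.83). The -Fe replicates were close together in both rows, with an SD of 0.02 for ath-MIR172a and 0.04 for ath-MIR172b, against 0.14 and 0.21 in +Fe.

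The other 3 rows had log2 fold changes of -0.06 (ath-MIR172c), -0.06 (ath-MIR172d) and -0.11 (ath-MIR172e) in -Fe against +Fe, with overlapping libraries. The median over the family was -0.06, and over all features it was -0.0015. The 95% intervals of the 5 rows reached from -0.35 to 0.48, which corresponds to 0.787 to 1.39 times the +Fe level, so larger changes lay outside the interval of each row. The deposited scale may be a regularized logarithm, which would understate changes of low rows such as ath-MIR172c. In whole shoots, fewer cells with the miRNA and less of it per cell cannot be told apart.

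The second comparison asked whether plants returned to iron differed from plants that never lacked it. No row of the 5 was called in Fe resupply against +Fe, against 0.127% of all features, and 1 of 5 had an unadjusted p under 0.05, against 6.63% of all features. That row was ath-MIR172a, at 0.33 (log2, standard error 0.13, 95% interval 0.06 to 0.59, unadjusted p = 0.0171 and adjusted p = 0.625 from limma). ath-MIR172b was at 0.26 (95% interval -0.04 to 0.56) and ath-MIR172d at 0.19 (95% interval -0.05 to 0.43), while ath-MIR172c was at -0.04 and ath-MIR172e at -0.21 (95% interval -0.44 to 0.03). Libraries of the 2 conditions overlapped in every row, whereas 11.1% of all features had no overlap, and Fe resupply replicate 3 lay within or below the +Fe range. Without that library the difference was 0.51 for ath-MIR172a (adjusted p = 0.160 from limma) and 0.49 for ath-MIR172b (adjusted p = 0.242 from limma), so neither was called without it. The sign of ath-MIR172c changed, to 0.11 without the same library and to 0.0022 without +Fe replicate 2. The median over the family was 0.19 and over all features -0.0017.

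The third comparison, Fe resupply against -Fe, covers plants that differed only in the last 24 hours. Again none of the 5 rows was called, against 0.528% of all features. ath-MIR172d had an unadjusted p under 0.05, as did 11.0% of all features, with a difference of 0.25 (log2, standard error 0.11, 95% interval 0.02 to 0.49, unadjusted p = 0.0382 and adjusted p = 0.420 from limma). Without Fe resupply replicate 3 it was 0.40 (adjusted p = 0.189 from limma). Libraries overlapped in each of the 5 rows, whereas 16.0% of all features had no overlap. The differences of the other rows were 0.14 for ath-MIR172a, 0.08 for ath-MIR172b, 0.02 for ath-MIR172c and -0.10 for ath-MIR172e. The direction of 3 rows turned when 1 library was left out. ath-MIR172b went to -0.061 without Fe resupply replicate 1 and -0.012 without replicate 2, and ath-MIR172e to 0.0061 without replicate 3. ath-MIR172c went to -0.045 without Fe resupply replicate 1, -0.071 without replicate 2 and -0.024 without -Fe replicate 2. Over the 3 comparisons, which share libraries, the 15 intervals together reached from -0.44 to 0.59, or from 0.736 to 1.50 times the reference level. Values of 309 other miRNA rows had medians of 0.012, 0.019 and 0.016 in the 3 comparisons, and 7, 8 and 4 of them were called.

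**Figure D3:**
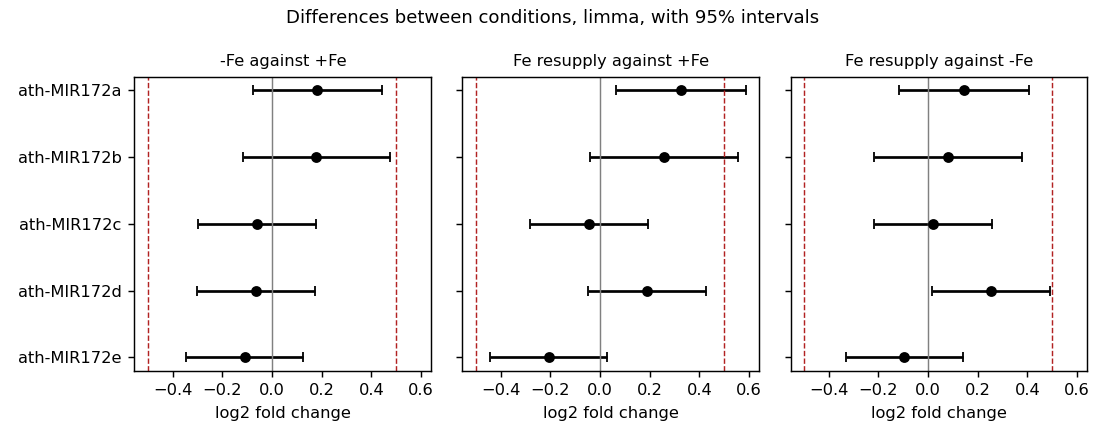
Log2 fold change (horizontal axis) of the 5 miR172 rows in the 3 comparisons, with 95% intervals from limma as bars and the limits of 0.5 in either direction as dashed lines. The estimates lie between -0.21 and 0.33, and 2 intervals, those of ath-MIR172a and ath-MIR172b in Fe resupply against +Fe, reach past a dashed line.

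The summed level of the family, a description without a test, was 1023, 1253 and 1260 in +Fe, 1299, 1312 and 1241 in -Fe, and 1623, 1551 and 1030 in Fe resupply on the back-transformed scale. On the log2 scale the means were 10.20 ± 0.17 in +Fe, 10.33 ± 0.04 in -Fe and 10.42 ± 0.36 in Fe resupply (SD, n = 3 each). The Fe resupply libraries thus held both the highest sum of the 9 and, in replicate 3, a sum close to the lowest, +Fe replicate 1. Without Fe resupply replicate 3 the difference from +Fe was 0.44 in place of 0.23.

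ath-MIR172e, the row led by a 5p RNA, was also set against ath-MIR172a in the same library. Here ath-MIR172a exceeded ath-MIR172e by 0.57, 0.74 and 0.46 in +Fe, by 1.02, 0.74 and 0.90 in -Fe, and by 1.28, 1.13 and 0.97 in Fe resupply (log2). Each Fe resupply library, replicate 3 included, lay above each +Fe library, while -Fe overlapped both. The mean difference was 0.59 ± 0.14 in +Fe, 0.89 ± 0.14 in -Fe and 1.13 ± 0.16 in Fe resupply (SD, n = 3 each). This pair of rows was chosen after the values were seen and was not tested, and it was not the only pair to separate. Of the 10 pairs of miR172 rows, which share rows and libraries, 6 had no overlap between Fe resupply and +Fe, against 23.5% of 8911 pairs among the other miRNA rows with a mean log2 value of at least 5. Between -Fe and +Fe 4 of 10 pairs had no overlap, against 20.6%, and between Fe resupply and -Fe 2 of 10, against 20.4%. ath-MIR172c, with a mean of 4.09, is below that limit of 5, yet its pairs are among the 10. Its pairs with ath-MIR172a, ath-MIR172b and ath-MIR172d were among those separating Fe resupply from +Fe. The pair with ath-MIR172b did so by very little (5.723 against 5.720). Its pairs with ath-MIR172a and ath-MIR172b were also among those separating -Fe from +Fe. The pairs that separated Fe resupply from both other conditions were ath-MIR172d with ath-MIR172c and ath-MIR172d with ath-MIR172e. As a share of the family, ath-MIR172e took 5.22% to 6.06% in +Fe, 4.40% to 5.32% in -Fe and 3.90% to 4.92% in Fe resupply.

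**Figure D4:**
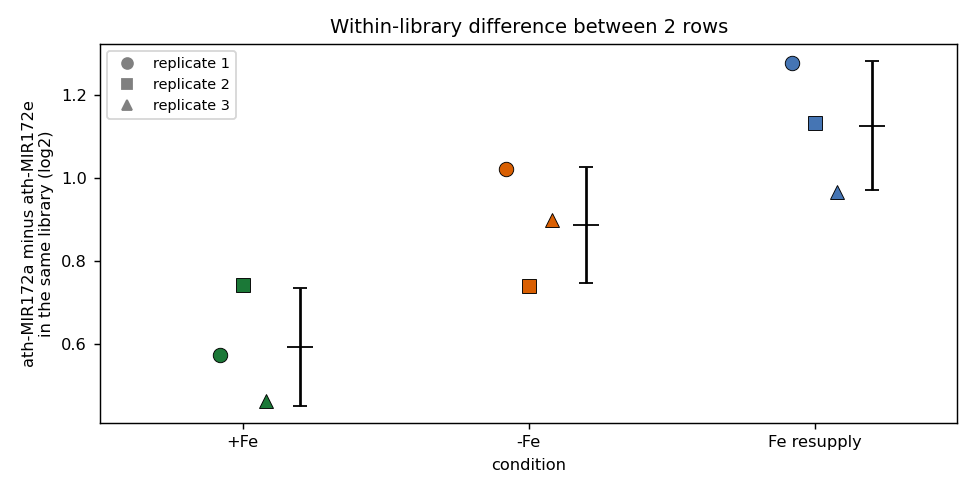
Log2 value of ath-MIR172a minus that of ath-MIR172e in the same library (vertical axis), by condition (horizontal axis) and replicate (symbol), with the mean and SD of 3 libraries as bars. The vertical axis does not start at 0, and the Fe resupply libraries lie between 0.97 and 1.28, above the +Fe range of 0.46 to 0.74.

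The known targets of miR172 are *AP2*, a floral organ identity gene that also represses flowering, and *TOE1*, *TOE2*, *TOE3*, *SMZ* and *SNZ*, its relatives that delay flowering. The 21 nt window that pairs best with miR172a was sought in 1 mRNA of each gene, without gaps, counting 1 for a mismatch and 0.5 for a G:U pair. The windows are printed 5′ to 3′ as mRNA, with bases that form no Watson-Crick pair with miR172a in capitals, because they show how the 3 mature forms differ in pairing.
AP2: CugcagcaucaucaGgauucu
TOE1: CAgcagcaucaucaGgauucu
TOE2: augcagcaucaucaGgauucu
TOE3: UGgcagcaucaucaGgauucu
SMZ: UugcagcaucaucaGgauucC
SNZ: UugUagcaucaucaGgauucC
All 6 windows place a G opposite base 7 of the miRNA, a G:U pair. The mRNA used was the longest isoform with the window in its coding sequence, so that location was set by the choice. Within the coding sequence the windows lie toward the 3′ end. *TOE1*, *TOE2*, *TOE3*, *SMZ* and *SNZ* also have annotated isoforms in which the window is not coding. Among the longest mRNAs of 31342 genes, 9 (0.0287%) hold a window with a penalty of at most 3. This limit is the highest penalty of the 6 targets, so the targets are among the 9 by construction.

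The windows lie at chr4:17403019-17403039 (*AP2*, AT4G36920), chr2:12226233-12226253 (*TOE1*, AT2G28550), chr5:24210889-24210909 (*TOE2*, AT5G60120), chr5:26802175-26802195 (*TOE3*, AT5G67180), chr3:20373774-20373794 (*SMZ*, AT3G54990) and chr2:16389066-16389086 (*SNZ*, AT2G39250). By this count the pairing depended on the mature form. *TOE2* paired best with the miR172a and miR172b form, with 20 of 21 Watson-Crick pairs and a penalty of 0.5, against 1.5 for the miR172c and miR172d form and 1 for miR172e-3p. *AP2* paired best with the miR172c and miR172d form (penalty 0.5, against 1.5 and 2). The penalty of *SMZ* was lowest with miR172e-3p, at 1.5, since its last base pairs with the 5′ G of that form. It was 2.5 with the miR172a and miR172b form and 2 with the miR172c and miR172d form. For *SNZ* the penalties were 2, 3 and 2.5 in the same order. *TOE1* and *TOE3* paired best with the miR172c and miR172d form (1.5 and 2), against 2.5 for the miR172a and miR172b form and 3 for miR172e-3p in each. A match is a property of the sequence and says nothing of cleavage in these shoots.

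**Figure D5:**
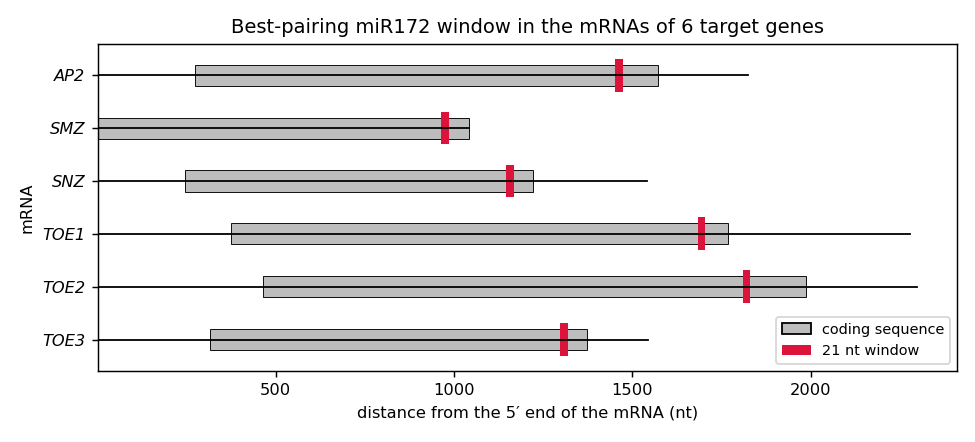
Position of the best-pairing 21 nt window (red) along 1 mRNA of each of 6 target genes, as distance from the 5′ end in nt (horizontal axis), with the coding sequence as a grey box. The window lies at 1452 to 1472 nt in *AP2* and at 965 to 985 nt in *SMZ*. The mRNAs were chosen to hold the window in the coding sequence, where it lies near the 3′ end.

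Small RNAs carrying the miR172 sequence were also counted at 1 target gene. Cluster_21778, from 24210831 to 24210981 on chromosome 5 and 151 nt wide, lies within *TOE2* and spans its miR172 window. Its most abundant RNA, of 23 nt, has no exact match in the genome. It is set here against the antisense strand of *TOE2* at chr5:24210887-24210909, with the differing base in capitals.
Listed RNA of Cluster_21778: agaaucUugaugaugcugcauuu
TOE2 antisense: agaaucCugaugaugcugcauuu
The listed RNA is miR172a with 2 more U at its 3′ end. It differs from the *TOE2* antisense strand by U7C alone, counted from its 5′ end, and from the *MIR172a* locus by U22C and U23G and from the *MIR172b* locus by U22C and U23A. The number of base differences was thus 1 from the antisense strand of the target site and 2 or 3 from the 5 *MIR172* genes. For *MIR172a* and *MIR172b* they lie only in the 2 added U, after the 21 bases of miR172a. Where the RNA came from was not tested.

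The log2 value of Cluster_21778 was 4.81, 4.87 and 5.04 in +Fe, 4.56, 5.09 and 4.67 in -Fe, and 4.64, 4.89 and 4.93 in Fe resupply. It lay above ath-MIR172c in every library. The conditions overlapped, and in -Fe it was -0.13 from +Fe (log2, standard error 0.12, adjusted p = 0.870 from limma). In Fe resupply replicate 3, where the 5 miR172 rows were lowest, this cluster had the highest of its 3 Fe resupply values. The table gives no strand or position of single reads, so whether reads of this cluster came from *MIR172* genes or from *TOE2* was not tested.

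Other loci of the age and flowering pathway gave no called row in any of the 3 comparisons. *TOE1* had a cluster as well, Cluster_8915, not led by a miR172 sequence, with 3.25 to 3.60 over the 9 libraries, and *AP2*, *TOE3*, *SMZ* and *SNZ* had none. Of 16 further genes of the pathway, which included *SPL3*, *SPL9*, *SVP*, *GI*, *FT*, *SOC1* and *FLC*, 7 had clusters, 9 in all. In -Fe against +Fe their log2 fold changes ran from -0.14 to -0.0012, and in the others from -0.17 to 0.17. The most abundant was Cluster_28358 at *TEM2*, a repressor of *FT*, with 5.60 to 5.95. None of the 14 rows of miR156 and miR157, which act upstream of miR172, was called (0.504%, 0.127% and 0.528% of all features were), and their log2 fold changes lay between -0.29 and 0.20. At an unadjusted p under 0.05 the counts were 2 of 14 in -Fe and 2 of 14 in Fe resupply against +Fe (8.02% and 6.63% of all features), and 0 of 14 in Fe resupply against -Fe (11.0%).

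Within a library the summed miR156 and miR157 level exceeded that of miR172 by 2.72 to 2.84 in +Fe, by 2.64 to 2.74 in -Fe, and by 2.52, 2.41 and 3.09 in Fe resupply (log2). The Fe resupply libraries therefore included both the lowest and the highest of the 9 differences, with replicate 3 as the highest.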

How the data were processed

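The authors trimmed adapters with Cutadapt, aligned and counted sRNA loci with ShortStack on TAIR10, and gave raw counts to DESeq2. They deposited log2 normalized values per feature and library. The exact transformation and the tool versions are not given in the sources used here, and raw counts were not used. Of 33171 features, 12 with 1 value in all libraries were left out. The remaining 33159 were tested without another filter in limma 3.58.1 (R 4.3.3), by 1 model over the 9 libraries with trended eBayes variances, and p was adjusted across all features by Benjamini-Hochberg. DESeq2 was not run, since it needs counts. The 95% intervals are per row and not adjusted. The step was tested on simulated data. Sequences and coordinates are from RefSeq's TAIR10.1. A mature sequence was taken as present in a listed RNA by its opening 17 nt. Tables and windows were computed in Python 3.11.15 with numpy 2.4.6 and pandas 2.3.3.

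Named features were the 5 rows, clusters at *MIR172* genes or led by miR172 sequences, clusters at 6 target and 16 pathway genes (those called and the most abundant), and the 3 miRNA rows most like each member. The members and lists were chosen with earlier results of these data known. Alternatives were 2 filters on the mean level, a pseudocount of 1, quantile normalization, median centring, models of only the conditions compared, robust or untrended eBayes, other call limits, a replicate block, and leaving out each library in turn.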

Additional observations from a re-analysis of the deposited data

How the results depend on the processing

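None of the 5 miR172 rows was called in any of the 3 comparisons under any alternative run. Of 297 alternative values of single rows, 289 kept their direction. Many of the 297 could not change it, since the setting leaves the log2 fold change as it is. Such settings are the mean filters, the eBayes variants, the call limits, the replicate block and models of only the conditions compared. Leaving out a library of the condition not compared also leaves it as it is. The lowest adjusted p from limma among the 297 was 0.160, for ath-MIR172a in Fe resupply against +Fe without Fe resupply replicate 3. ath-MIR172c has no value at a mean of at least 50. The 8 that changed sign came from leaving out 1 library of a compared condition. For ath-MIR172c the range was -0.13 to 0.11 in Fe resupply against +Fe and -0.07 to 0.17 in Fe resupply against -Fe. In the latter comparison ath-MIR172b ranged from -0.06 to 0.31 and ath-MIR172e from -0.16 to 0.01. The single values behind these changes were 0.0022 and 0.11 for ath-MIR172c against +Fe, and -0.061 and -0.012 for ath-MIR172b, -0.024, -0.045 and -0.071 for ath-MIR172c and 0.0061 for ath-MIR172e against -Fe. The difference in summed level ranged from 0.03 to 0.18, from 0.11 to 0.44 and from -0.02 to 0.31 in the 3 comparisons with 1 library left out. With the pseudocount, median centring or quantile normalization, it moved from its main value by less than the replicate SD. Leaving out 1 library could not move it by more than that SD, which was computed with the library included. Those runs were therefore not judged by it.

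Counts over all features moved more. The 3 comparisons called 167, 42 and 175 features. Keeping only the 7332 features whose mean reached 50 on the back-transformed scale left 37, 13 and 99. Robust eBayes gave 97 in -Fe against +Fe, and dropping the fold change limit gave 265 there and 371 in Fe resupply against -Fe. With 1 library left out the counts ranged from 121 to 236, from 26 to 122 and from 97 to 375. Same-numbered libraries did not deviate together (correlations across features from -0.06 to 0.10), and the labels name no shared batch. With the replicate number as a block the counts were 227, 75 and 212, and no miR172 row was called. The absence of read totals limits what can be said of depth, and the low rows most of all.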

Other observations

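Among 134 other miRNA rows with a mean log2 value of at least 5, those most like each miR172 row over the 9 libraries were listed as a description, since all points share their libraries. The row most like ath-MIR172b was ath-MIR394a (Pearson r = 0.92), followed by ath-MIR159a (0.82) and ath-MIR394b (0.82). For ath-MIR172a they were ath-MIR159a (0.86), ath-MIR823 (0.84) and ath-MIR394a (0.84). ath-MIR172c was most like ath-MIR394a (0.78), ath-MIR164b (0.72) and ath-MIR858a (0.72), and ath-MIR172d most like ath-MIR159a (0.77), ath-MIR171b (0.71) and ath-MIR833a (0.67). ath-MIR172e stood with other rows, ath-MIR319a (0.82), ath-MIR319b (0.82) and ath-MIR5642b (0.78). Within the family, r was 0.96 between ath-MIR172a and ath-MIR172b, which share their mature RNA, and 0.66 between ath-MIR172c and ath-MIR172d, which share theirs. Between ath-MIR172e and the other 4 rows it lay between 0.13 and 0.42. All of these values include the low Fe resupply replicate 3.

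In the search for pairing windows, 3 genes outside the known targets had a penalty of 3 with miR172a in their longest mRNA, *SWEET2* (AT3G14770), *HSD3* (AT3G47360) and AT5G12900. They were singled out after the search, and nothing in the table bears on whether miR172 acts on them.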
